A study of Sus scrofa with 6 samples.

Results

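Of the 4908 lncRNA transcripts in the deposited table, 1761 belonged to 592 loci with 2 or more listed transcripts, and these loci and their isoforms are described here. A locus was taken as the transcript ID without its last number, so that MSTRG.142258.1 and MSTRG.142258.2 were transcripts 1 and 2 of the locus MSTRG.142258. The table held 3739 loci in all, and the other 3147 transcripts were the only one of their locus. Of the 592 loci, 358 had 2 transcripts, 127 had 3 and 107 had 4 or more, and the locus MSTRG.142750 had 25. The cells were porcine preadipocytes from subcutaneous adipose tissue of 5-day-old pigs, labelled as Junmu white pigs with a number from 1 to 6, another for each sample. The NC group (negative control) received citric acid at 10 mM and the TGF-β1 group was given 10 ng/mL of recombinant human TGF-β1, both for 48 h. There were 3 samples a group, biological replicates by the paper's account. Whether these numbers stand for animals, and whether both groups share animals, is not stated.

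LncRNAs are transcripts without a known protein product, and many are spliced like mRNAs. One locus can give several transcripts by alternative start sites, splice sites or ends, and the transcripts can differ in the binding sites they carry. Preadipocytes are precursors of adipocytes, and TGF-β1 is a cytokine that acts through receptor kinases and Smad proteins and is known to inhibit adipogenesis. The transcripts in these files came from an assembly of short reads by StringTie, which divides the reads of overlapping transcripts among the isoforms of a locus. The unit was FPKM, the fragments per kilobase of transcript scaled to the mapped fragments of the sample. The share of a transcript was its FPKM as a percentage of the summed FPKM of the listed lncRNA transcripts of its locus, the locus sum. In 339 loci every transcript number up to the highest was listed. In the others some numbers were not listed, so their shares cover the listed transcripts and need not cover the whole locus.

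The lncRNA FDNCR1, which the study named and examined further, was 1 of 2 listed transcripts of the locus MSTRG.142258. Both of its RT-qPCR primers lay in the transcript MSTRG.142258.2, from base 40 to base 186, with a product of 147 bases. The first 300 bases of this transcript are shown because this isoform is the one the study named, and its FPKM did not overlap between the groups while the sum of the listed transcripts did. The capitals mark the primer sites, in the orientation of the study's table.
MSTRG.142258.2: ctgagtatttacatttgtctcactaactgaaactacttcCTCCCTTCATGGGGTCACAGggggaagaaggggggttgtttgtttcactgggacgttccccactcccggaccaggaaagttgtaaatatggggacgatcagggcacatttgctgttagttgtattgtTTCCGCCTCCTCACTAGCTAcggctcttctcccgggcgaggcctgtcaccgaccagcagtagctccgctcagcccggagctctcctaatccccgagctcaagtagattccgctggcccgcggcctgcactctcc
MSTRG.142258.2 was listed at 0 in every NC sample (n = 3), while its FPKM with TGF-β1 was 1.39, 0.908 and 0.414. The FPKM of MSTRG.142258.1 was 1.10, 1.19 and 1.18 in NC and 0.203, 0.547 and 0.720 with TGF-β1. The groups did not overlap in either transcript, and the transcripts differed in opposite directions. The locus sum was 1.10, 1.19 and 1.18 in NC and 1.60, 1.46 and 1.13 with TGF-β1, and here the groups overlapped. Its mean was 1.16 ± 0.0483 for NC and 1.40 ± 0.238 for TGF-β1 (SD, n = 3 each). The log2 fold change was 0.24 with a standard error of 0.29 (limma, adjusted p = 0.883). The share of FDNCR1 was 0 in every NC sample and 87.3%, 62.4% and 36.5% in the TGF-β1 samples, with a mean of 62.1% ± 25.4 (SD, n = 3). A listed value of 0 need not mean that FDNCR1 was absent. The study located it in preadipocytes by fluorescence in situ hybridization and measured it by RT-qPCR during differentiation. The ratio of the 2 transcripts had an unadjusted p of 0.000874 in limma and did not pass after adjustment over all ratios (adjusted p = 0.383). FDNCR1 itself did not pass in the test of single transcripts (limma, adjusted p = 0.133), which it entered only through its values in the TGF-β1 samples. No sequence of MSTRG.142258.1 was used here, so whether the primers also lie in it was not analysed.

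**Figure D1:**
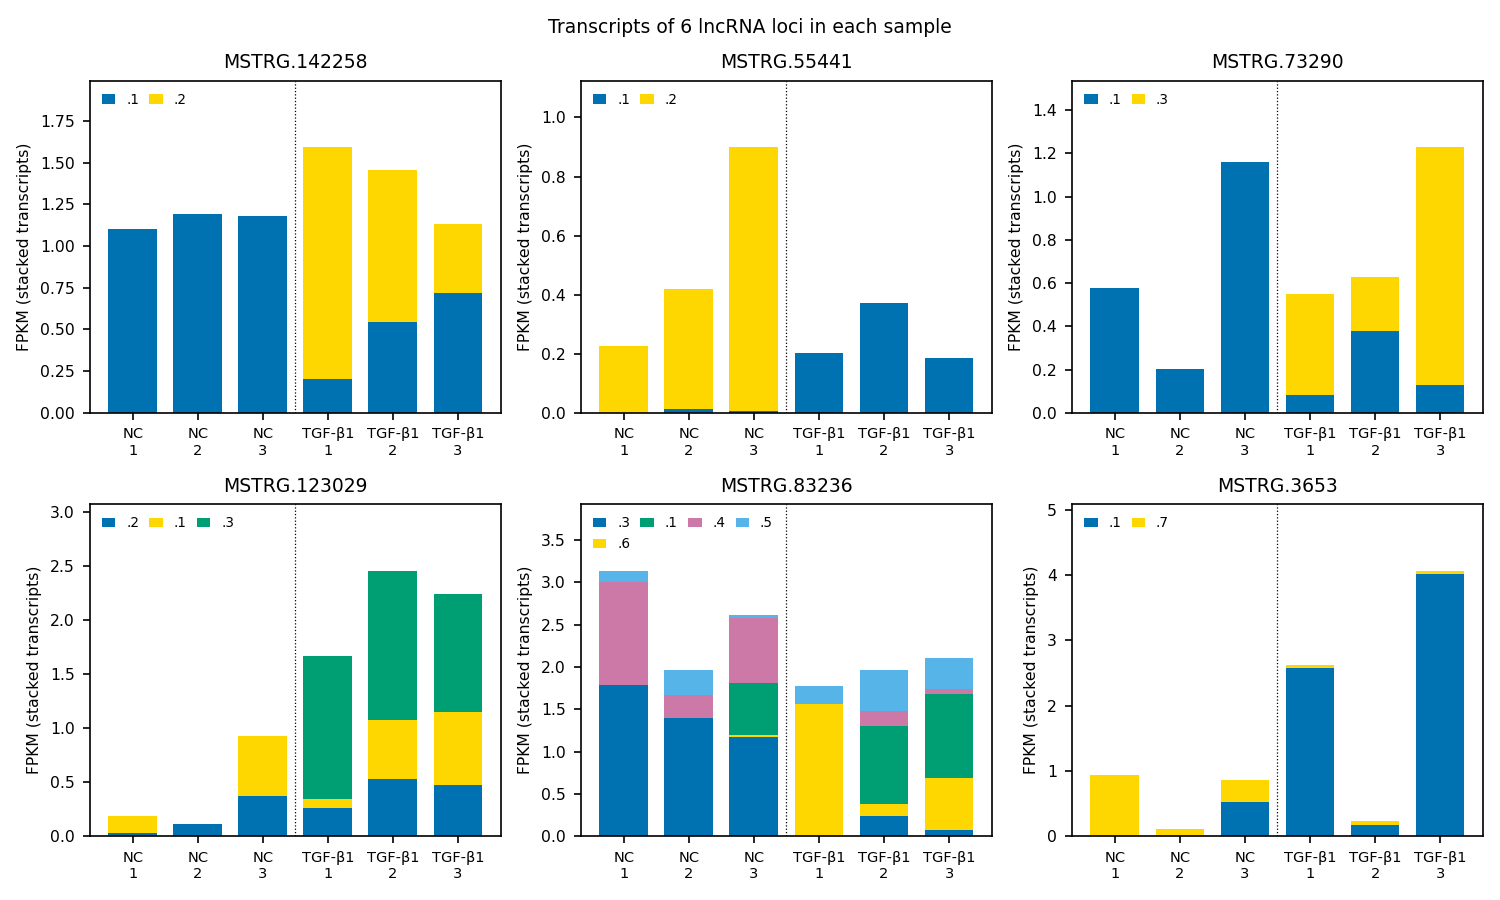
Stacked FPKM of the transcripts of 6 loci in each of the 3 NC and 3 TGF-β1 samples, where each bar is a sample, its height is the locus sum and each colour is 1 transcript, named by its last number. In MSTRG.142258 the bars stay between 1.10 and 1.60 FPKM while transcript 2 (FDNCR1) is listed at 0 in NC and reaches 0.414 to 1.39 with TGF-β1.

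Isoform shifts were tested with limma on log2 of the ratio of each transcript to the rest of its locus, with 0.1 FPKM added to both. Of 1403 ratios in the 592 loci, 0 passed at an adjusted p of 0.1 (0% called) and the smallest adjusted p was 0.383. At an unadjusted p of 0.05 the test gave 76 ratios, or 5.42% of those tested. In simulated data with many transcripts changed at once, this ratio test recovered 11 of 50 changes of 4 fold and 25 of 50 changes of 16 fold. A ratio that did not pass can therefore still differ between the groups. An alternative test within each locus (diffSplice of limma) called 7 ratios, among them those of MSTRG.142258.1 and MSTRG.55441.1 (adjusted p = 0.0258 for each). This test takes the transcripts of a locus as separate measurements, but the assembler divides shared reads among them. Its p-values, here and below, can therefore be too small. Limma on the arcsine square root of the shares called 3. The isoform composition was described further in the 428 loci with a mean locus sum of at least 0.5 FPKM and a sum above 0 in all samples, which held 1420 transcripts. In these, 143 shares (10.1%) did not overlap between the groups, 72 higher and 71 lower with TGF-β1. For 3 samples against 3, an exact permutation test of a single share cannot give a p below 0.1.

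The shares differed as much between replicates as between the groups. The distance between 2 samples was taken as the percentage points of a locus that would have to move from one transcript to another to turn one composition into the other. Its median over the 428 loci was 31.0 points between samples of different groups and 30.7 points between samples of the same group, with 29.1 within NC and 30.7 within TGF-β1. The distance between the groups was larger than within the groups in 167 loci, or 39.0%. The leading transcript, the one with the highest mean share, differed between NC and TGF-β1 in 142 loci, or 33.2%. Between 2 samples of the same group, the transcript with the highest share differed in 39.3% to 46.0% of loci, and between samples of different groups it differed in 39.7% to 45.1%. In 111 loci 1 transcript led in all 6 samples. In 2 loci, named after their values were seen, 1 transcript led in every NC sample and another in every TGF-β1 sample. In MSTRG.130969, the share of transcript MSTRG.130969.1 was 100%, 73.0% and 72.1% in NC and 30.0%, 0% and 42.5% with TGF-β1. In MSTRG.154361, the share of MSTRG.154361.1 was 81.9%, 79.4% and 57.8% in NC and 42.1%, 47.1% and 47.8% with TGF-β1. Both loci had 2 listed transcripts at a low level, with mean sums of 0.517 and 0.663 FPKM, and neither ratio passed (limma, adjusted p = 0.883 and 0.884).

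**Figure D2:**
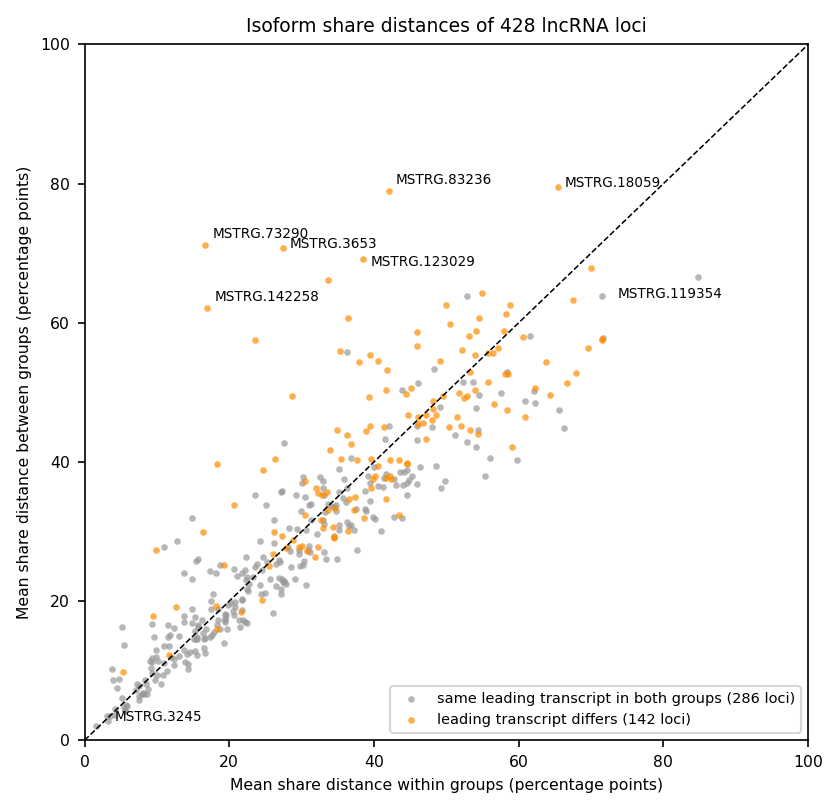
Mean share distance between samples of different groups against the mean distance between samples of the same group, in percentage points, for 428 loci (1 point each) with the line of equal distance. The points lie along the line, with 167 above it, and MSTRG.142258 stands at 62.1 between and 16.9 within.

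How steady the shares were went with the level of a locus. From the lowest to the highest level, in loci with a mean sum of 0.5 to 1, 1 to 2, 2 to 5 and 5 or more FPKM, the median distance within groups was 34.8, 32.6, 22.6 and 16.7 points over 188, 111, 74 and 55 loci. The leading transcript differed between the groups in 38.3%, 35.1%, 28.4% and 18.2% of the loci of these classes. The median share of the leading transcript was 57.2% over the 428 loci, from 11.1% to 96.9%. It was 70.3% in loci with 2 transcripts, where it cannot be under 50%, and 53.4% and 34.5% in those with 3 and with 4 or more. The locus sum was steadier than the transcript that led it. Its median SD within groups on the log2 scale was 0.395, against 0.544 for the leading transcript, and the leading transcript had the larger SD in 298 of 428 loci (69.6%). A single sample held over 50% of the FPKM summed over 6 samples in 359 of 1761 transcripts (20.4%), in 7 of 592 locus sums (1.18%) and in 523 of 3147 transcripts that were alone in their locus (16.6%).

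**Figure D3:**
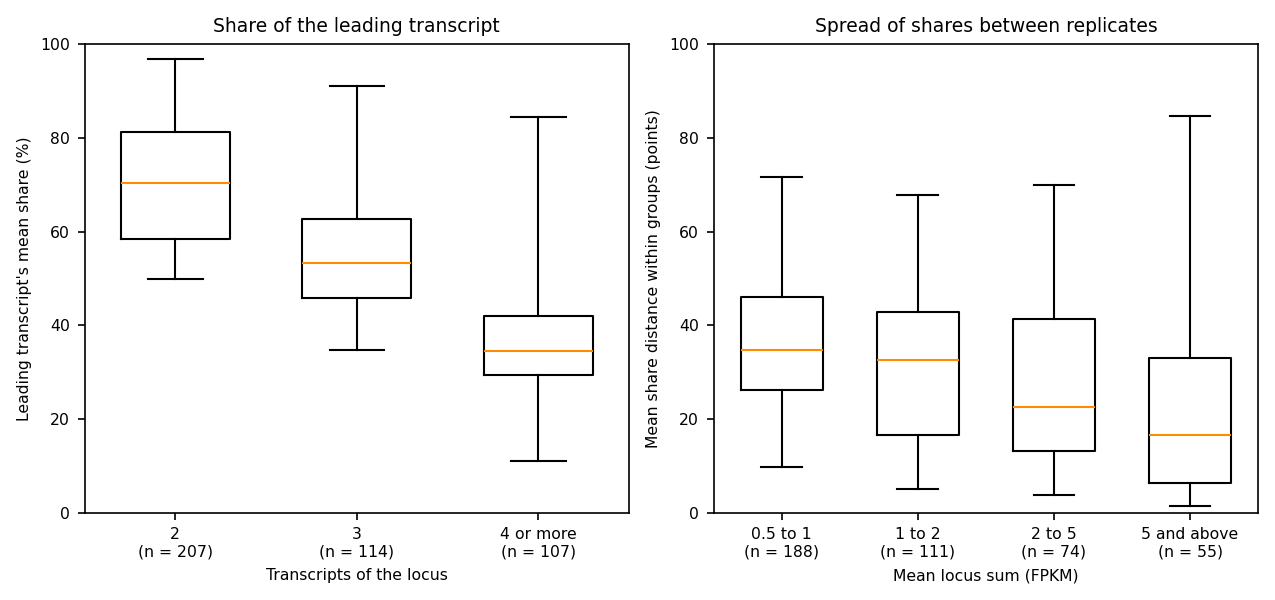
Left, the mean share of the leading transcript in loci with 2, 3 and 4 or more transcripts, and right, the mean share distance within groups by the mean locus sum in FPKM. Boxes span the quartiles with the median as a line and whiskers reach the lowest and highest locus, and the median distance falls from 34.8 to 16.7 points over the 4 levels.

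In the test of all 4260 lncRNA transcripts that passed the filter on low values, 5 (0.117%) had an adjusted p under 0.1 in limma, of which 2 belonged to loci with several transcripts. The filter, an FPKM above 0.1 in at least 3 of 6 samples, kept 1522 of the 1761 isoforms. At an unadjusted p of 0.05, 341 transcripts (8.00%) were found, among them 105 isoforms (6.90%), 41 of them higher and 64 lower with TGF-β1. For transcripts alone in their locus the split was 149 higher and 87 lower. After quantile normalization the splits were 42 and 66 and 149 and 93. The FPKM of the groups did not overlap in 182 of the 1522 isoforms and in 13.3% of all tested transcripts. The files cannot tell fewer cells of a type from less RNA per cell.

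MSTRG.123029.3 rose with TGF-β1. Each NC sample listed it at 0, and its FPKM was 1.32, 1.38 and 1.09 in the TGF-β1 samples (limma, adjusted p = 0.0157). It met the filter only through the TGF-β1 samples. With 0.1 FPKM added, its NC values were a constant without spread, so this p-value can be too small. The other 2 transcripts of this locus were present in both groups. MSTRG.123029.2 had 0.0289, 0.113 and 0.371 in NC and 0.264, 0.528 and 0.473 with TGF-β1, and MSTRG.123029.1 had 0.161, 0 and 0.558 against 0.0828, 0.548 and 0.677. Their groups overlapped. The locus sum was 0.190, 0.113 and 0.930 in NC and 1.66, 2.46 and 2.24 with TGF-β1, and it did not pass (log2 fold change 2.46, standard error 0.61, limma, adjusted p = 0.259). The third transcript held 79.1%, 56.3% and 48.6% of the locus in the TGF-β1 samples. Its ratio to the rest of the locus did not pass (limma, adjusted p = 0.883), but its share passed as the arcsine square root (limma, adjusted p = 0.0907). In this locus the isoform listed at 0 in NC thus came with a locus sum that was higher in every TGF-β1 sample.

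MSTRG.5713.2 fell with TGF-β1. Its FPKM was 3.40, 4.14 and 1.58 in NC and 0.00786, 0.00691 and 0.0177 with TGF-β1, a log2 fold change of -4.72 with a standard error of 0.43 (limma, adjusted p = 0.0232). It met the filter only through the NC samples. Its TGF-β1 values were under the added 0.1 FPKM and so had little spread, and this p-value can be too small as well. The second transcript of the locus, MSTRG.5713.3, had 0.0807, 0.0438 and 0 in NC and was high in 1 sample, with 4.63, 0 and 0 with TGF-β1. The locus sum was therefore as high in TGF-β1 replicate 1 (4.64) as in NC (3.48, 4.18 and 1.58) and near 0 in the other 2 TGF-β1 samples (0.00691 and 0.0177). The sum did not pass (limma, adjusted p = 0.674). Without NC replicate 1 or any 1 of the TGF-β1 replicates, neither MSTRG.123029.3 (adjusted p = 0.114 to 0.156) nor MSTRG.5713.2 (adjusted p = 0.130 to 0.200) passed in limma. With the replicate number as a block neither isoform passed (limma, adjusted p = 0.316 for both). The first 120 bases of both are shown, since they are the isoforms that passed. The GC content of the 399 bases used was 41.4% in MSTRG.123029.3 and 28.6% in MSTRG.5713.2, where the 22 isoforms with a sequence ranged from 28.6% to 75.7%.
MSTRG.123029.3: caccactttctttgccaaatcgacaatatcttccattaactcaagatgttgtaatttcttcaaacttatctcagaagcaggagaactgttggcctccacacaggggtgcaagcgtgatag
MSTRG.5713.2: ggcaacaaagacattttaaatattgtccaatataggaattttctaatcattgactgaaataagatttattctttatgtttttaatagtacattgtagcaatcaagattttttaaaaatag

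The smallest p of all isoform ratios was in MSTRG.55441, where a different transcript was at or near 0 in each group. Its mean locus sum of 0.384 FPKM was under the minimum of 0.5 FPKM, so it is not among the 428 loci described by shares. The FPKM of MSTRG.55441.2 was 0.227, 0.406 and 0.893 in NC and listed at 0 in all TGF-β1 samples. The FPKM of MSTRG.55441.1 was 0, 0.0130 and 0.00638 in NC and 0.201, 0.371 and 0.184 with TGF-β1. One transcript thus made up 96.9% to 100% of the locus in each NC sample and the other 100% in each TGF-β1 sample, at locus sums of 0.184 to 0.900 that overlapped between the groups. The unadjusted p of the ratio was 0.000309 and it did not pass after adjustment (limma, adjusted p = 0.383). It passed with 0.01 in place of 0.1 FPKM added (limma, adjusted p = 0.0349) and as the arcsine square root of the share (limma, adjusted p = 0.00413). The start of the isoform listed at 0 with TGF-β1 is shown.
MSTRG.55441.2: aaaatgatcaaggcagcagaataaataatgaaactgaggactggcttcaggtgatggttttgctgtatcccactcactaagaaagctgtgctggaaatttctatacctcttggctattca

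Among loci with a mean sum of at least 1 FPKM and a sum above 0 in all 6 samples, the largest share differences without overlap, beside those of MSTRG.142258 and MSTRG.123029, were in MSTRG.3653, MSTRG.83236, MSTRG.132913 and MSTRG.124999. They were chosen for these differences, which are given as a description. MSTRG.18060, whose sum was 0 in NC replicate 2, had a difference of 68.3 points over the other 5 samples. In MSTRG.3653, the share of MSTRG.3653.1 was 0%, 0% and 60.3% in NC and 97.8%, 76.5% and 98.5% with TGF-β1. Its locus sum was uneven, at 0.940, 0.110 and 0.860 in NC and 2.63, 0.226 and 4.08 with TGF-β1, so the high share stood at a high sum in 2 samples and at a low sum in the other. In MSTRG.83236, which had 5 listed transcripts, MSTRG.83236.3 had an FPKM of 1.79, 1.40 and 1.17 in NC and 0, 0.237 and 0.0690 with TGF-β1. Its share was 56.9%, 71.5% and 44.7% in NC and 0%, 12.1% and 3.28% with TGF-β1. What took its place differed among the TGF-β1 samples. MSTRG.83236.6 held 88.2% in replicate 1, while MSTRG.83236.1 held 47.3% and 46.9% in replicates 2 and 3 and 0% in replicate 1. The locus sum was 2.57 ± 0.592 for NC and 1.95 ± 0.164 for TGF-β1 (SD, n = 3 each; limma, adjusted p = 0.857).

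In MSTRG.132913, the FPKM of MSTRG.132913.2 was 1.14, 0.968 and 1.08 in NC and 0.646, 0.534 and 0.197 with TGF-β1, and that of MSTRG.132913.1 was 0.322, 0.241 and 0.152 against 0.442, 0.471 and 1.19. The transcripts differed in opposite directions without overlap, and the sum was 1.47, 1.21 and 1.23 in NC against 1.09, 1.00 and 1.39 (limma, adjusted p = 0.921). In MSTRG.124999, the share of MSTRG.124999.1 was 63.5%, 98.9% and 64.5% in NC and 53.3%, 3.06% and 59.1% with TGF-β1. The difference between the group means came mostly from NC replicate 2 and TGF-β1 replicate 2, since the other 4 samples lay between 53.3% and 64.5%. None of these 4 ratios passed (limma, adjusted p = 0.383 for MSTRG.83236.3, 0.883 for MSTRG.3653.1 and 0.884 for MSTRG.132913.1 and MSTRG.124999.1). MSTRG.83236.3 passed in diffSplice of limma (adjusted p = 0.0918).

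Opposite moves within a locus, as in MSTRG.132913, were counted over all 592 loci. In 18 loci (3.04%) at least 1 transcript was higher and at least 1 was lower with TGF-β1 without overlap of the groups. In 169 loci the groups did not overlap in at least 1 transcript. Over all tested transcripts they did not overlap in 13.3%, which is a rate per transcript. Each of these loci has several transcripts, so neither the 169 nor the 18 loci can be compared with that rate. A locus with more transcripts can meet either count more easily. MSTRG.142750 with 25 transcripts and MSTRG.33362 with 15 were among the 18. How many such loci would arise without a difference between the groups was not computed. The locus sum overlapped between the groups in 16 of the 18, where it did so in all but 14.0% of the tested loci. The other 2, MSTRG.138598 and MSTRG.18519, were named after their values were seen and had lower sums with TGF-β1. In MSTRG.18519 the leading MSTRG.18519.1 had 7.80, 6.46 and 6.04 in NC and 4.51, 5.29 and 5.10 with TGF-β1, while MSTRG.18519.2 had 0, 0.0469 and 0.280 against 0.581, 0.337 and 0.799. Of all 1761 isoforms, 12 were listed at 0 in every NC sample and above 0 in every TGF-β1 sample, and 5 showed the reverse. The same count was not made for transcripts alone in their locus. Low values were among them, as in MSTRG.157735.5 with 0.127, 0.239 and 0.00983 FPKM with TGF-β1. The locus sum overlapped between the groups in 14 of these 17, a share near that of all tested loci.

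Locus sums were tested over all 3330 loci that passed the filter. At an adjusted p of 0.1, 3 loci passed (0.0901%), and all 3 had 1 listed transcript. None of the 592 loci with several transcripts passed, and their smallest adjusted p was 0.188. At an unadjusted p of 0.05 the test gave 285 loci (8.56%), of which 26 had several transcripts (4.39% of 592), 15 higher and 11 lower with TGF-β1. The sums of the groups did not overlap in 80 of the 592 loci (13.5%), where the share over all tested loci was 14.0%. At an unadjusted p of 0.05, 26 loci were found by their sum and 67 by at least 1 ratio, and 6 loci by both. The 592 loci had 1 sum test each but 1403 ratio tests in all, so these counts of loci cannot be compared. Per test, 5.42% of the ratios and 4.39% of the sums had such a p. Of the 105 isoforms with an unadjusted p below 0.05 as single transcripts, 49 also had this for their ratio and not for the locus sum, 16 for the sum and not for the ratio, 1 for both and 39 for neither. Ratio, sum and transcript values come from the same samples, so these counts describe overlapping measures. Across the 428 loci, Spearman's rho between the share distance and the absolute log2 fold change of the sum was 0.238, where both values carry the noise of the same FPKM values and loci are not independent replicates.

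**Figure D4:**
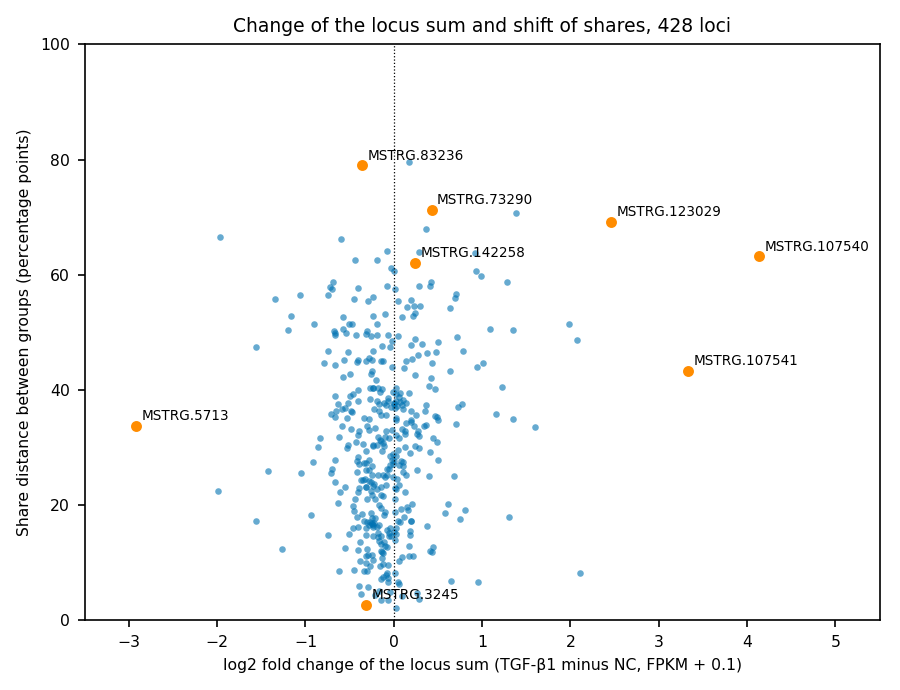
Share distance between the groups in percentage points against the log2 fold change of the locus sum (TGF-β1 minus NC, FPKM + 0.1), 1 point for each of 428 loci with 8 named loci in orange. MSTRG.142258 has a distance of 62.1 points at a log2 fold change of 0.24, while MSTRG.107540 has 63.2 points at 4.14.

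A supplementary list of differentially expressed lncRNAs from the study gave a sequence for 41 transcripts, of which 22 were isoforms of the loci described here and 19 were alone in their locus. That list was drawn from the same 6 samples, so the direction of its members is no independent evidence. Of the 22, the FPKM of the groups did not overlap in 16 (13.3% over all tested transcripts), of which 11 were higher and 5 lower with TGF-β1. The locus sum overlapped between the groups in 14 of these 16, which is near the share over all tested loci, of which 14.0% did not overlap. The rest of the locus moved in the other direction, by group means, in 15 of the 22. How often this occurred over all isoforms was not counted, so the number is a description of the chosen 22 only. Only 10 of the 22 passed the filter on low values. For MSTRG.73290 the pattern was like that of FDNCR1. MSTRG.73290.3 was at 0 in each NC sample and at 0.467, 0.247 and 1.10 in the TGF-β1 samples, while MSTRG.73290.1 had 0.577, 0.203 and 1.16 in NC and 0.0840, 0.380 and 0.129 with TGF-β1. Its locus sum was 0.646 ± 0.481 and 0.801 ± 0.370 (SD, n = 3 each), and the ratio did not pass (limma, adjusted p = 0.742).

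Further isoforms of the list were listed at 0 in all NC samples beside a transcript present in both groups. MSTRG.19152.2 had 0.0360, 0.298 and 0.339 with TGF-β1, while MSTRG.19152.1 had 0.0619, 0.0233 and 0.158 in NC and 0.0781, 0.165 and 0.165 with TGF-β1. MSTRG.136160.3 had 0.365, 0.0412 and 0.172 with TGF-β1 at a locus sum of 0.269 to 0.499 over the 6 samples. MSTRG.18060.3 had 0.469, 0.182 and 7.91, so that 1 sample carried most of it, and MSTRG.118158.1 had 0.0694, 0.683 and 1.41 in a locus whose sum was 0 in 2 NC samples. MSTRG.77937.2 had 0.449, 0.0417 and 0.0754 in a locus of 5 transcripts with a sum of 1.27 ± 0.286 for NC and 1.10 ± 0.503 for TGF-β1 (SD, n = 3 each). All of these but MSTRG.18060.3 were left out of the transcript test by the filter. MSTRG.137023.5, with 0.0111, 0.00915 and 0 in NC and 0.0224, 0.430 and 0.259 with TGF-β1, was left out as well.

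Of the isoforms that were lower with TGF-β1, MSTRG.113224.3 had 0.350, 0.302 and 0.0521 in NC and was listed at 0 in all TGF-β1 samples, where MSTRG.113224.2 made up 66.4%, 100% and 100% of the locus. MSTRG.98905.1 overlapped between the groups. It made up 99.4%, 99.8% and 0% of its locus in NC and at most 1.30% with TGF-β1, and MSTRG.98905.2 made up the rest. NC replicate 3 thus had the same leading isoform as the TGF-β1 samples. MSTRG.145161.1 overlapped between the groups, with 0.0403, 0.319 and 0.00280 in NC and 0.441, 0 and 0.188 with TGF-β1. In loci with many transcripts the listed isoform was a minor one. MSTRG.93114.3 held 6.33%, 0.186% and 4.95% of its locus in NC and at most 0.0978% with TGF-β1 (diffSplice of limma, adjusted p = 0.0172), and MSTRG.98880.4 held 2.82%, 2.66% and 13.3% in NC and 0% with TGF-β1. MSTRG.8329.27 held 4.94% and 8.30% in TGF-β1 replicates 2 and 3 and at most 0.167% in the other samples, and MSTRG.48306.8 held 9.77% and 14.6% in TGF-β1 replicates 1 and 2 and at most 0.188% elsewhere.

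The loci MSTRG.107540 and MSTRG.107541, both on the list, stood at neighbouring numbers and shared sequence. The stretch of each that holds the shared run is shown with the run in capitals, because reads from it cannot be assigned to one locus by sequence alone. The run was 108 bases long on the same strand and reached the last base used of MSTRG.107541.1, so it may be longer. It was the only shared run of at least 20 bases among the 231 pairs of these 22 isoforms on either strand.
MSTRG.107540.1: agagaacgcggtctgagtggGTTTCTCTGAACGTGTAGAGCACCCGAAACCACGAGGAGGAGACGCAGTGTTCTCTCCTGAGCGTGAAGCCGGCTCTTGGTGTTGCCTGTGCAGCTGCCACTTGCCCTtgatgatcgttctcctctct
MSTRG.107541.1: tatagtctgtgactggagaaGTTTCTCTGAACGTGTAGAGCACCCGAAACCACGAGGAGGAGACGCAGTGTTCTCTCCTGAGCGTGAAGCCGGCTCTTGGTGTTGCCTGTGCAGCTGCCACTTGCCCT
The locus sum of MSTRG.107540 was 6.33, 3.73 and 18.2 in NC and 26.0, 121 and 792 with TGF-β1, which did not overlap. Its log2 fold change of 4.14 (standard error 1.24) did not pass (limma, adjusted p = 0.316). Each TGF-β1 sample had its own main isoform. MSTRG.107540.10 held 48.6% in replicate 1, MSTRG.107540.1 held 72.2% in replicate 2 with an FPKM of 87.0, and MSTRG.107540.11 held 99.3% in replicate 3 with an FPKM of 787. The locus sum of MSTRG.107541 was 0.207, 1.38 and 0.514 in NC and 17.2, 1.96 and 7.92 with TGF-β1, also without overlap (log2 fold change 3.33, standard error 0.90, limma, adjusted p = 0.306). MSTRG.107541.1 held 97.9% and 75.6% in TGF-β1 replicates 1 and 3 and 9.74% in replicate 2, where MSTRG.107540.1 was at its highest.

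**Figure D5:**
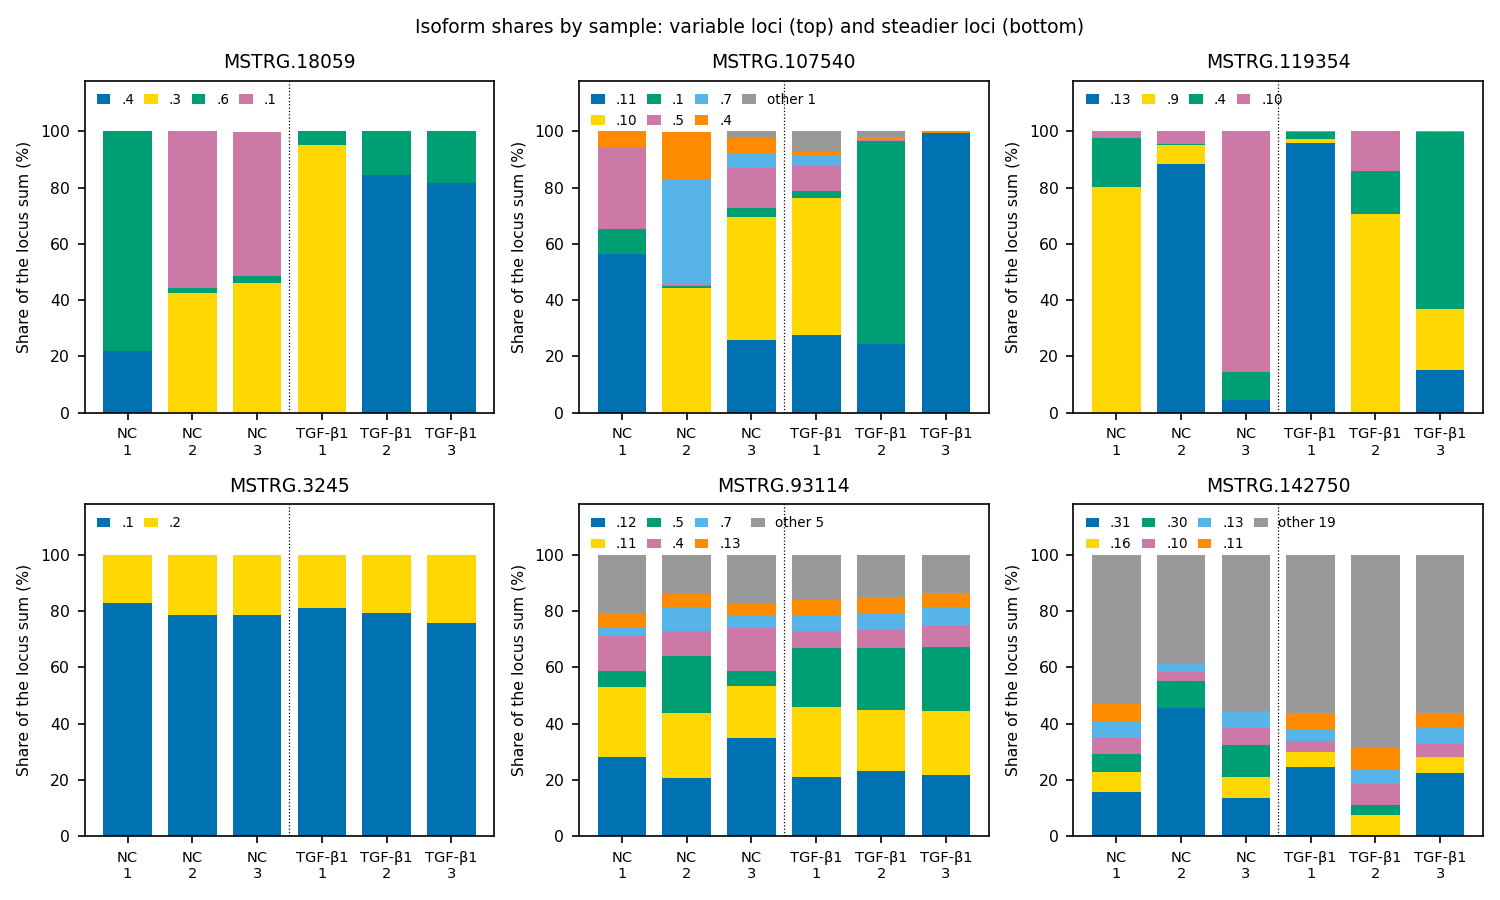
Share of the locus sum in percent held by each transcript in the 6 samples, with loci of variable composition in the upper row and steadier loci in the lower row (colours are transcripts by their last number, gray the sum of all others). In MSTRG.18059 the leading transcript changes within both groups, while MSTRG.3245.1 holds 75.9% to 83.0% in every sample.

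The locus with the highest sum was MSTRG.18059, with 80.6, 502 and 469 FPKM in NC and 198, 434 and 314 with TGF-β1. Its sum overlapped between the groups (limma, adjusted p = 0.974) and its composition alternated within them. MSTRG.18059.1, another isoform of that list, had 0.00230, 279 and 241 in NC and 0.0263, 0.00909 and 0.00323 with TGF-β1. It was thus above 1 FPKM in only 2 samples of NC. In the same 2 samples MSTRG.18059.3 had 213 and 216, and it was also high in TGF-β1 replicate 1 at 189. MSTRG.18059.4 had 366 and 257 in TGF-β1 replicates 2 and 3, 17.5 in NC replicate 1 and 0 in the other samples. The ratio of MSTRG.18059.1 did not pass (limma, adjusted p = 0.883), but it passed when NC replicate 1 was left out (limma, adjusted p = 0.00230). That sample is the NC sample in which this isoform was near 0, so leaving it out removes the overlap of the groups. The start of MSTRG.18059.1 is shown because this isoform was high in 2 NC samples and near 0 in the other 4.
MSTRG.18059.1: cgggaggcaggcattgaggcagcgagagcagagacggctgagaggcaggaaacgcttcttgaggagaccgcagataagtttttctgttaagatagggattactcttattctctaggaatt

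Next in level after MSTRG.18059 and MSTRG.107540 were MSTRG.56145, MSTRG.11166 and MSTRG.63608. The sum of MSTRG.56145 was 19.5, 9.98 and 296 in NC and 104, 294 and 27.1 with TGF-β1, and MSTRG.56145.22 held 93.2%, 74.0% and 81.8% in the 3 samples with the highest sums. The sum thus varied within both groups by over 10 times, carried by 1 isoform. MSTRG.11166 was even, with a sum of 106 ± 19.7 for NC and 85.6 ± 15.0 for TGF-β1 (SD, n = 3 each). Its MSTRG.11166.4 led in all 6 samples with 54.8% to 96.3%, and MSTRG.11166.3 held 25.0% to 26.1% in 4 samples, 44.5% in TGF-β1 replicate 3 and 0% in TGF-β1 replicate 2. The sum of MSTRG.63608 was 32.4, 27.0 and 123 in NC and 123, 105 and 138 with TGF-β1. There NC replicate 3 resembled the TGF-β1 samples also in composition, since MSTRG.63608.5 was listed at 0 in NC replicates 1 and 2 and reached 33.1 in NC replicate 3 and up to 57.1 with TGF-β1. None of these sums passed (limma, adjusted p = 0.867, 0.862 and 0.609).

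The loci with the most listed transcripts had sums that did not pass. MSTRG.142750, with 25 transcripts, had 6.44, 6.15 and 5.04 in NC and 6.12, 5.56 and 5.31 with TGF-β1. Most of its transcripts were near one another in level, and the leading MSTRG.142750.31 held a mean of 20.4% but 45.7% in NC replicate 2 and 0% in TGF-β1 replicate 2. MSTRG.142750.30 had 0.400, 0.590 and 0.573 in NC and 0, 0.203 and 0 with TGF-β1 (ratio in limma, adjusted p = 0.883, and 0.0640 in diffSplice). MSTRG.8329, with 20 transcripts, had a sum of 6.54 ± 1.99 for NC and 6.36 ± 0.760 for TGF-β1 (SD, n = 3 each). Its MSTRG.8329.24 had 0.575, 0.691 and 0.442 in NC and 0.236, 0.114 and 0.0951 with TGF-β1 (ratio in limma, adjusted p = 0.884). MSTRG.33362 and MSTRG.139969 had 15 transcripts each. MSTRG.33362.1 led in all 6 samples with 23.2% to 31.6%, while in MSTRG.139969 5 different transcripts led in 1 or more of the 6 samples. MSTRG.98880 and MSTRG.48306 had 14 each. In MSTRG.98880 each of the 6 samples had another leading transcript. In MSTRG.48306, MSTRG.48306.7 held 22.7%, 22.2% and 21.4% in NC and 10.7%, 18.5% and 9.79% with TGF-β1 (ratio in limma, adjusted p = 0.943). The smallest adjusted p of the 6 sums was 0.753, in MSTRG.139969.

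The steadiest compositions, among loci with a mean sum of at least 1 FPKM and a second transcript of at least 20%, were in MSTRG.3245, MSTRG.126468, MSTRG.100411, MSTRG.106126 and MSTRG.168321. All 5 had 2 listed transcripts. MSTRG.3245.1 held 83.0%, 78.7% and 78.5% in NC and 81.0%, 79.4% and 75.9% with TGF-β1, at a sum of 52.7 ± 2.37 and 42.5 ± 1.87 (SD, n = 3 each). The sum did not overlap between the groups and the composition did, but the sum did not pass (log2 fold change -0.31, standard error 0.27, limma, adjusted p = 0.857). In 3 of the others the shares of the groups did not overlap, but the log2 ratio changes were about as large as their standard errors or smaller. MSTRG.126468.3 held 61.8%, 62.0% and 64.3% in NC and 69.0%, 71.7% and 77.9% with TGF-β1. MSTRG.100411.1 held 66.2%, 63.8% and 61.2% in NC and 52.7%, 55.0% and 61.0% with TGF-β1, and MSTRG.168321.2 held 54.4%, 53.8% and 62.0% against 51.7%, 45.1% and 44.2%. The log2 ratio changes of these 3 were 0.64, -0.44 and -0.50 with standard errors of 0.57, 0.57 and 0.58 (limma, adjusted p = 0.954 for each). MSTRG.106126.1 held 50.4% to 54.9% in NC and 54.9% to 64.8% with TGF-β1 (limma, adjusted p = 0.954).

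The most variable compositions among loci of at least 1 FPKM were in MSTRG.119354, MSTRG.63781, MSTRG.69445, MSTRG.145977 and the MSTRG.107540 described above, with distances within groups of 67.5 to 84.7 points. In MSTRG.119354 a different transcript led in each NC sample, MSTRG.119354.9 with 80.4% in replicate 1, MSTRG.119354.13 with 88.3% in replicate 2 and MSTRG.119354.10 with 85.7% in replicate 3. In the TGF-β1 samples MSTRG.119354.13 led with 95.9% in replicate 1, MSTRG.119354.9 with 70.5% in replicate 2 and MSTRG.119354.4 with 62.9% in replicate 3. MSTRG.63781.1 held 98.3% in NC replicate 3 and 98.6% in TGF-β1 replicates 2 and 3, but 2.27%, 5.98% and 24.0% in the other samples. The locus sum was 12.3 to 33.7 FPKM over the 6 samples, while NC replicates 1 and 2 used MSTRG.63781.4 (64.7%) and MSTRG.63781.2 (91.3%). In MSTRG.69445, with 12 transcripts, each of the 6 samples had another leading transcript, and in MSTRG.145977 the shares of MSTRG.145977.2 ran from 0% to 85.1% in NC and from 0.00282% to 85.3% with TGF-β1. These loci show that compositions this far apart occurred between replicates of one group.

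The sum of a locus could be compared with the mRNA table of the same samples. In 169 of the 592 loci (28.5%) the sum equalled, to 4 decimals in all 6 samples, the FPKM of a gene of that table, and in all 169 this was a new gene of the authors' assembly. For these loci the listed transcripts make up the whole gene. Of the 428 loci described, 119 were of this kind. Their median distance was 26.1 points between and 25.5 points within groups, and the leading transcript differed between the groups in 33 of the 119. MSTRG.132913, MSTRG.5713, MSTRG.63608, MSTRG.3245, MSTRG.100411 and MSTRG.106126 were among them, while MSTRG.142258 was not.

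Proteins that control splicing and the choice of the 3' end were examined in the mRNA table with a list of 38 splicing regulators and 6 3' end factors, of which 30 and 6 were found by name. Of the 28 and 6 that were tested, 0 passed at an adjusted p of 0.1 in limma, where 17 of all 17708 tested genes passed (0.0960%), and 1 of each had an unadjusted p below 0.05. Both were named after their values were seen. RBM25, a splicing factor of the nuclear speckle, had 8.71 ± 0.565 FPKM for NC and 7.15 ± 0.257 for TGF-β1 (SD, n = 3 each; limma, adjusted p = 0.457). CPSF6, a subunit of the complex that selects poly(A) sites, had 7.53 ± 0.616 and 6.26 ± 0.235 (SD, n = 3 each; limma, adjusted p = 0.490). The median log2 fold change was -0.10 for the splicing regulators and -0.16 for the 3' end factors, where that of all tested genes was also -0.10. The highest levels were those of HNRNPA1 (122 FPKM), SRSF2 (116), HNRNPK (90.7), HNRNPA2B1 (88.7) and SRSF1 (82.9), RNA-binding proteins of the hnRNP and SR families.

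The number of isoforms seen differed between samples within both groups. Isoforms listed at 0 numbered 186, 226 and 257 in NC and 254, 232 and 197 with TGF-β1 (two-sided exact permutation test, p = 0.800), and 1230 to 1338 of the 1761 were above 0.1 FPKM in a sample. The median of the highest share was 66.4% to 69.0% in NC and 66.6% to 69.2% with TGF-β1 (two-sided exact permutation test, p = 1.00). Over these 3 measures all adjusted p were 1, and 0.1 was the smallest p that 3 samples against 3 allow. Across the tested isoforms, Pearson's r of log2 values was 0.547 to 0.607 within and 0.504 to 0.622 between groups, where transcripts are not independent replicates. A relative depth, estimated from the most common ratio of low FPKM values, was 0.740 to 0.881 of that of NC replicate 1 in the other samples. It rested on 21 to 27 genes. By this estimate NC replicate 1 would have the highest depth and TGF-β1 replicate 1 (0.740) the lowest. The paper, however, reports more raw reads for the TGF-β1 group than for the control. The direction of this scale is therefore uncertain, and no order of depth is set beside the isoforms listed at 0. The part of depth in the isoform values was not tested. Of 12 preadipocyte and stromal markers 11 were found, with a summed FPKM of 7190 to 8514, and 5 mature adipocyte markers summed to 0.562 to 1.96. The summed epithelial markers were 0.0378 to 0.250 in NC and 3.58 to 5.00 with TGF-β1, and KRT5 and KRT8 passed (limma, adjusted p = 0.000290 and 0.0730) while CDH1 and KRT18 were near 0. Macrophage and leukocyte markers summed to 31.0 to 113 in NC and 13.6 to 71.4 with TGF-β1. Endothelial markers summed to 5.68 to 13.7 and 4.30 to 9.20. PECAM1 carried this sum, while VWF, KDR and TEK were low (means of 0.0217, 0.236 and 0.128 FPKM) and CDH5 was not found. Skeletal muscle markers, carried by DES, summed to 277 to 440 in NC and 447 to 599 with TGF-β1. Of the others, MYOD1, MYOG and MYH3 were not found and CKM was near 0 (mean of 0.0159 FPKM). These sums thus do not show that endothelial or skeletal muscle cells were present. The part of a mixture of cells in the isoform differences was not tested.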

How the data were processed

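RNA was depleted of rRNA (Ribo-Zero Gold) before sequencing. The deposited values were FPKM per transcript or gene, which the authors made with StringTie 1.3.1 on the Sus scrofa 10.2 genome. The aligner and the use of strand in counting are not given in the sources used here, and the FPKM tables hold no counts, so the precision of single values is unknown. Reads shared by isoforms are divided by the assembler, so isoform values of 1 locus depend on each other.

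Loci and shares were computed in Python 3.11.15 (pandas 2.3.3, numpy 2.4.6, scipy 1.17.1). Differences were tested with limma 3.58.1 (R 4.3.3) on log2(FPKM + 0.1), which understates the change of low values, with Benjamini-Hochberg adjustment over all features tested and a threshold of 0.1. Transcripts and loci needed an FPKM above 0.1 in 3 of 6 samples. P-values measure the spread between the 6 samples, since the labels do not say how the animals were divided.

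Named were isoforms that passed, the 6 loci of at least 1 FPKM, with a sum above 0 in all samples, that had the largest share differences without overlap, isoforms of the study's list, the 5 loci of highest sum, those with the most transcripts (6 with ties), and the 5 steadiest and 5 most variable loci. Members and lists were chosen with earlier results of these data known. Sequences are from the study's supplementary tables (at most 399 bases of each transcript), and 22 isoforms had one. Alternatives covered the added constant, filters, normalization, other tests, the replicate number as a block and leaving out each sample. The ratio and transcript tests were checked on simulated data, with 50 changed transcripts at each fold. All were changed at once, in loci with a mean sum of at least 0.5 FPKM, and no filter was used. Each transcript was drawn independently, although real isoforms share reads. Adjustment is milder where many features change, so recovery in the real data can be lower. At changes of 2, 4, 8 and 16 fold the ratio test recovered 6%, 22%, 40% and 50% of them. The transcript test recovered 2%, 46%, 60% and 68%. Columns with no sample numbered 0.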

Additional observations from a re-analysis of the deposited data

How the results depend on the processing

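The count of isoform ratios past an adjusted p of 0.1 in limma, 0 in the test reported, was 1 with 0.01 FPKM added, 7 with diffSplice, 3 with the arcsine square root of the share and 0 to 1 when 1 sample was left out. The count of locus sums was 3, and it was 33 with 0.01 FPKM added, 5 with trend and robust estimates, 15 after quantile normalization and 1 to 7 when 1 sample was left out. The count of transcripts was 5, and it was 43 with 0.01 FPKM added, 3 for a mean FPKM of at least 1 and 1 to 9 when 1 sample was left out. With the replicate block, 1 locus sum and 1 transcript passed, and MSTRG.123029.3 and MSTRG.5713.2 did not (limma, adjusted p = 0.316 for both). The replicate numbers were not taken as pairs, since the labels name none and the deviations of samples with the same number correlated at -0.0287 to 0.0569 over transcripts and -0.0607 to -0.0172 over ratios. Over the genes of the mRNA table these correlations were 0.251, 0.00393 and 0.196 for the numbers 1, 2 and 3, so a pairing in part cannot be told apart from none, and not every sample correlated best with its own number. This last check was added after the data were seen. Some cell type markers, picked after their values were seen, ran in the same order by replicate number in both groups. PTPRC, CD163, VIM and DES did so, while others, such as COL1A1 and CSF1R, did not. The leading transcript differed in 31 of 129 loci with a mean sum of at least 2 FPKM, against 142 of 428. The median leading share was 57.2%, and it was 59.1% at a minimum sum of 0.1 FPKM and 62.6% at 2 FPKM. The median distance between the groups was 31.0 points, and it was 33.2 at 0.1 FPKM, 21.1 at 2 FPKM and 16.4 when FPKM was summed within each group first. The cause of these differences was not tested. Levels under 1 FPKM, at which most of these loci stood, limit what can be said of single isoforms.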
